A study of Equus asinus with 3 samples.

Results

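LHX9 and STMN2 were followed across 3 single-cell libraries of the donkey (Equus asinus) male tract. They are 2 of the 34267 features in the count tables, and both had UMIs in every library. They were chosen because earlier results of these data placed them in testis stromal cells, against epididymal fibroblasts and germ cells. Their levels in those classes are therefore a description, and no test is given for them.

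LHX9 encodes a LIM-homeodomain transcription factor. In the mouse it is needed for the early gonad to form, and it is known in the surface epithelium and interstitial mesenchyme of the developing gonad. LIM-homeodomain proteins bind DNA and work with the cofactors LDB1 and LDB2, while the LIM-only proteins (LMO) compete for the same cofactors. STMN2 encodes stathmin 2, a small protein that binds free tubulin and destabilises microtubules. It is best known from growing axons, is anchored to membranes by palmitoylation, and is turned over after phosphorylation by the JNK pathway.

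The tissues were testis, caput (head) of the epididymis and corpus (body) of the epididymis, from sexually mature male donkeys. There was 1 library of each, and the series design gives 3 animals without saying how they relate to the libraries. No strain, treatment or exact age is given, and no sort is described. Per the labels' protocols, tissue stayed in a storage solution for up to 48 h, was then treated with collagenase IV plus DNase I (15 min at 37 °C), was strained and was loaded into DNBelab C4 droplets. By their labels the testis library is of germ cells, and the caput and corpus libraries are of somatic cells. Testis stromal cells are a minority there, and whether digestion favoured some cell types was not tested.

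Each transcript molecule was counted by its unique molecular identifier (UMI). The libraries held 47686179 UMIs in 8610 barcodes for testis, 13203203 in 9478 for caput and 4142512 in 9611 for corpus. The median depth was 4704 UMIs per cell in testis, 1145 in caput and 371 in corpus. Barcode names are serial numbers, and 7161 of them occur in all 3 libraries, so shared names do not show shared cells. Levels are given as CPM (UMIs of a gene per 1000000 UMIs of the cells in question) with an exact 95% Poisson interval, shares of cells with an exact 95% binomial interval, and ratios with an exact conditional interval. With 1 library per tissue these intervals cover counting error only, and differences between animals cannot be told apart from differences between tissues.

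Cell classes were rebuilt by clustering each library and scoring marker lists. Testis cluster 9, with 184 of 8591 cells, met 21 of 22 fibroblast and stroma markers and was led by APOE, DCN, APOD, B2M, GSN, VIM, TIMP3, C1R, ACTA2 and ANXA2. It is called testis stromal cells here. All 22 markers had UMIs, and 11 of 12 peritubular myoid and smooth muscle markers did as well, with ACTA2, the smooth muscle actin, at 428 UMIs. Of 13 Sertoli markers 9 had UMIs, 76 in all, of which GATA4 gave 43, while SOX9 and AMH were among the 4 at 0. The Sertoli list summed to 99.8 CPM in testis stromal cells and 16.8 CPM in testis germ cells. Of 8 Leydig markers 7 had UMIs, 332 in all, of which IGF1 gave 223, INSL3 54 and STAR 7, and HSD17B3 was at 0. All 14 endothelial markers had UMIs, 116 in all. Of 14 macrophage markers 8 had UMIs, 336 in all, or 441 CPM, against 278 CPM in caput and 236 CPM in corpus fibroblasts. The fibroblast class held 732 cells in caput and 2761 in corpus, and 10 clusters with 8074 cells made up the testis germ cells.

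The testis stromal cells carried much germ cell RNA. A list of 17 general germ cell genes summed to 4078 CPM in them, against 278 CPM in caput fibroblasts and 160 CPM in corpus fibroblasts, and the 10 testis germ clusters ranged over 4047 to 45283 CPM. The stromal list gave 7163 CPM in testis stromal cells, against 50076 CPM in caput fibroblasts and 83985 CPM in corpus fibroblasts. A subset of 53 testis stromal cells with under 0.2% of UMIs in the germ list, set after the data had been seen, had 1058 CPM of germ list and 24701 CPM of stromal list. It also had 529 CPM of endothelial list and 1884 CPM of macrophage list, where CD74 gave 220 of 235 UMIs. Results are given with this subset beside those for all 184 cells. The part that germ RNA or doublets had in the class differences was not tested.

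LHX9 had 186 UMIs in the testis stromal cells, a level of 244 CPM (210 to 282). It had 13 UMIs in caput fibroblasts, or 11.9 CPM (6.36 to 20.4), and 17 UMIs in corpus fibroblasts, or 13.6 CPM (7.91 to 21.7). Testis germ cells had 827 UMIs of LHX9 in a much larger pool, which gave 18.3 CPM (17.1 to 19.6). Among these 4 classes only the testis stromal cells stood clear of the others, since the intervals of both fibroblast classes overlapped that of the germ cells. The level in testis stromal cells was 20.5 times that of caput fibroblasts (11.7 to 39.1), 18.0 times that of corpus fibroblasts (10.9 to 31.5) and 13.3 times that of testis germ cells (11.3 to 15.6).

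STMN2 had 125 UMIs in the testis stromal cells, a level of 164 CPM (137 to 196). It had 22 UMIs in caput fibroblasts, or 20.2 CPM (12.7 to 30.6), and 17 UMIs in corpus fibroblasts, or 13.6 CPM (7.91 to 21.7). Testis germ cells had 64 UMIs, or 1.42 CPM (1.09 to 1.81). Unlike LHX9, STMN2 was lower in testis germ cells than in either fibroblast class, with intervals that did not overlap. The level in testis stromal cells was 8.12 times that of caput fibroblasts (5.14 to 13.4), 12.1 times that of corpus fibroblasts (7.25 to 21.4) and 116 times that of testis germ cells (84.9 to 159).

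In the 53 testis stromal cells low in germ RNA both levels were higher. LHX9 had 88 UMIs there, or 706 CPM (566 to 869), and STMN2 had 70 UMIs, or 561 CPM (437 to 709). The other 131 testis stromal cells had 154 CPM of LHX9 (125 to 188) and 86.4 CPM of STMN2 (65.1 to 112). With the low-germ subset, LHX9 was 59.1 times the caput fibroblast level, 52.0 times the corpus fibroblast level and 38.5 times the germ cell level. The same ratios for STMN2 were 27.8, 41.3 and 396.

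**Figure D1:**
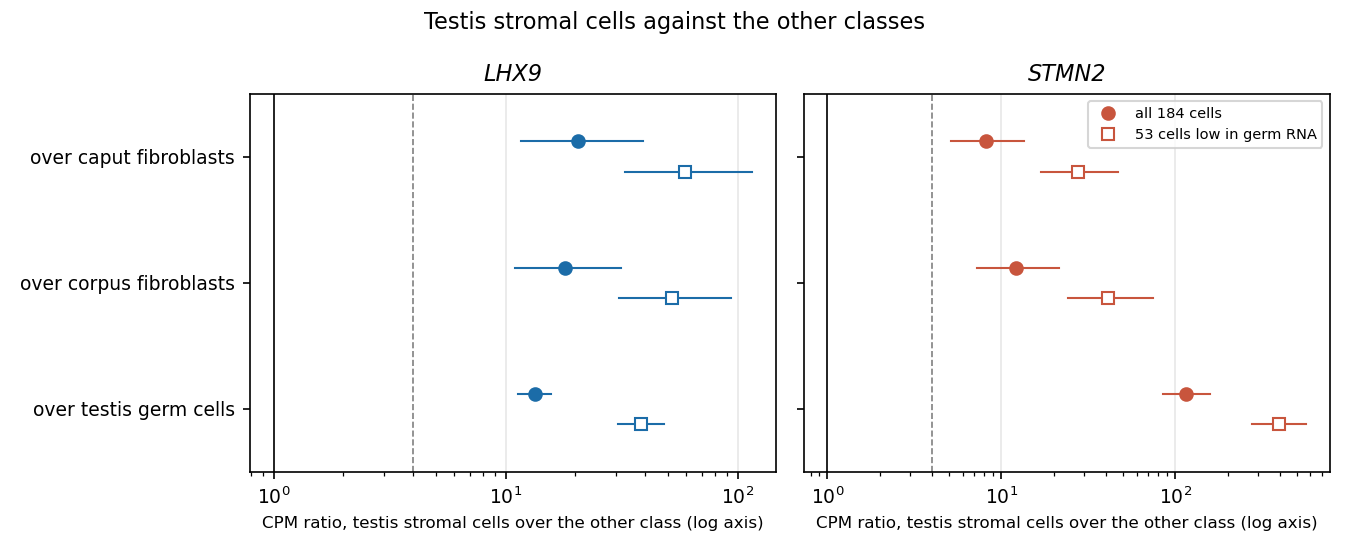
Ratio of CPM in testis stromal cells over caput fibroblasts, corpus fibroblasts and testis germ cells, for LHX9 (left) and STMN2 (right), on a log axis, with exact 95% intervals. Filled circles use all 184 testis stromal cells and open squares the 53 cells low in germ RNA, the solid line marks a ratio of 1 and the dashed line a ratio of 4. All 12 intervals lie to the right of the dashed line, and the STMN2 ratio over germ cells, 116, is the highest of the 6 filled circles.

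Over all features, a ratio was counted as past the fold rule when its whole interval lay beyond 4-fold and the higher side had at least 10 UMIs. Testis stromal cells were higher by this rule than caput fibroblasts for 1152 of 15705 features (7.34%), than corpus fibroblasts for 1466 of 16426 (8.92%) and than testis germ cells for 983 of 18777 (5.24%). Both members passed in all 3 contrasts, which are the contrasts they were chosen on. The first 8 named genes higher over both fibroblast classes were PPP3R2, TSACC, CCER1, CALM3, FTMT, C25H1orf56, CETN1 and MEIG1, and each of these had more CPM in testis germ cells than in testis stromal cells. CETN1, for example, was at 1465 CPM in testis stromal cells and 1768 CPM in testis germ cells.

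Passing in all 3 contrasts was uncommon among the 11664 features that could be tested in each. It was met by 8 features, among them LOC106841408, INSL3, LHX9, LOC106832730, ACTA2, CCL15 and STMN2, in order of their smallest lower bound. LHX9 and STMN2 were chosen on these contrasts, so their place among the 8 is a description. INSL3 is a Leydig cell hormone, CCL15 is a chemokine, and the files give 2 of the 8 a locus identifier alone. With the 53 low-germ cells 39 of 6726 features passed in all 3 contrasts, and 7 of the 8 were among them, all but INSL3. In that subset 1.33% of features passed as higher than in caput fibroblasts, 1.89% than in corpus fibroblasts and 5.2% than in testis germ cells, and 0.552% passed as lower than in testis germ cells.

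These features were spread over the testis stromal cells in different ways. LHX9 was found in 95 of 184 cells, with at most 6 UMIs in a cell, and its fullest cell held 3.23% of its UMIs. STMN2 was found in 59 cells, with at most 10 UMIs in a cell. INSL3 had 54 UMIs in 9 cells, of which 29 lay in 1 cell, and CCL15 had 34 UMIs in 6 cells, of which 16 lay in 1 cell. INSL3 had 0 UMIs in the low-germ subset, whereas 88 of 186 LHX9 UMIs and 70 of 125 STMN2 UMIs lay there.

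Within the testis library, LHX9 and STMN2 were placed differently. The testis stromal cells held 17.9% of the LHX9 UMIs of the library and the germ clusters, with 8074 cells, 79.4%. For STMN2 the stromal cells held 65.1% and the germ clusters 33.3%. The label of a gonadal stroma gene thus described where most STMN2 UMIs lay, while for LHX9 it described the CPM and not where most UMIs lay.

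LHX9 was lowest in 1 of the testis germ clusters, and the intervals of the others overlapped each other. It ranged over 4.998 to 21.8 CPM, with a median of 17.9 CPM over the 10 clusters. The lowest was cluster 10, led by the transition proteins TNP2 and TNP1 of late spermatids, with 4 UMIs and 4.998 CPM (1.36 to 12.8). Its interval lay below that of cluster 1, which had 128 UMIs and 21.8 CPM (18.1 to 25.9), and of clusters 0, 2, 3, 4, 5 and 6, and overlapped those of clusters 7 and 11.

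The germ clusters were compared with testis immune cells, which should lack LHX9. LHX9 was seen in 745 of 8074 germ cells (9.23%, median depth 4777.5 UMIs) and in 25 of 280 cells of T and NK cluster 8 (8.93%, median depth 4245 UMIs). That cluster itself had 5315 CPM of the germ list, inside the range of the germ clusters, so it is no background free of germ RNA. In T and NK cluster 12, with 1199 CPM of germ list, 1 of 31 cells had a UMI, and in the macrophage cluster 0 of 22 cells did, where 3 counts would be 42.0 CPM. The germ cell share was close to that of cluster 8, and whether germ cells express LHX9 was not tested. The ratio of LHX9 to STMN2 UMIs was 1.49 in testis stromal cells (1.18 to 1.88) and 12.9 in testis germ cells (10.01 to 16.9).

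STMN2 ranged over 0.704 to 3.58 CPM in the testis germ clusters, with a median of 1.36 CPM. The highest was cluster 5, with 14 UMIs (1.96 to 6.01 CPM), whose leading genes include the long neuronal genes PTPRD, LRRC4C and TENM2. Its interval overlapped that of every other germ cluster except cluster 2, which had 4 UMIs (0.192 to 1.80 CPM).

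Genes of the stromal list gave a scale for these germ cell levels. For 19 list members with at least 50 UMIs in testis stromal cells, the germ cell level was 0.123% to 12.4% of the stromal level, with a median of 0.899%. STMN2 stood near that median at 0.864% (0.629 to 1.18). LHX9 stood at 7.51% (6.39 to 8.85), and the intervals of 16 of the 19 list members lay wholly below its interval. COL5A2, a fibrillar collagen, and FBN1, the microfibril protein fibrillin 1, stood higher at 12.4% and 9.35%, and TCF21, a mesenchymal transcription factor, was lowest at 0.123%.

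**Figure D2:**
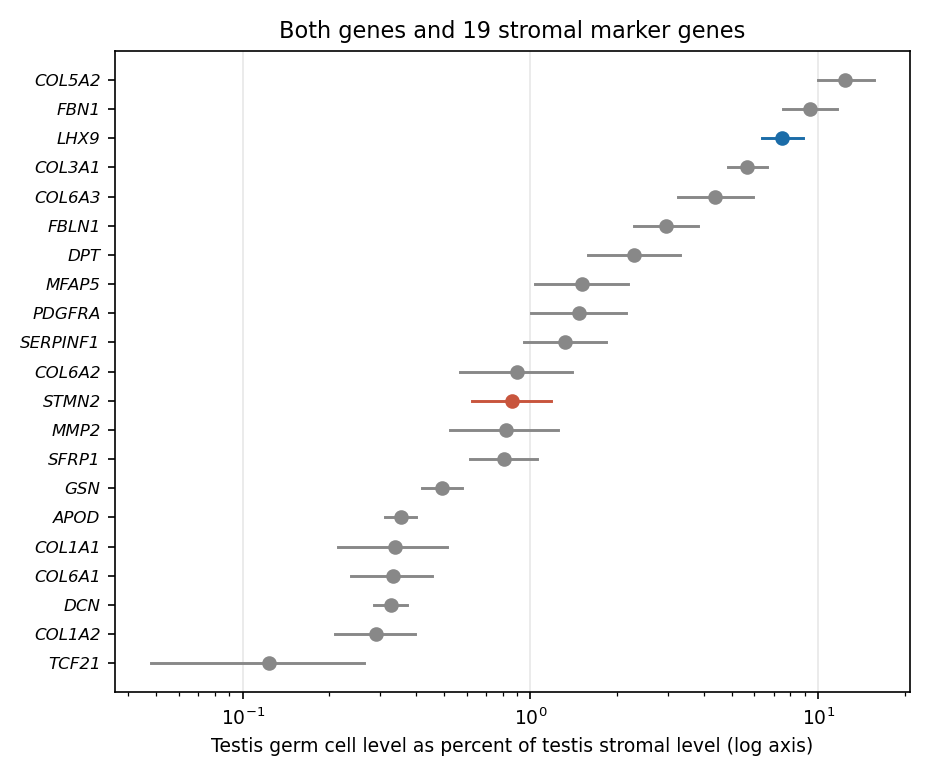
Level in testis germ cells as a percent of the level in testis stromal cells, on a log axis, for LHX9 (blue), STMN2 (red) and 19 stromal marker genes (grey). Points are ratios of CPM and lines exact 95% intervals. LHX9 lies near the top at 7.51%, and STMN2 near the middle at 0.864%.

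In the epididymis both genes were sparse. LHX9 had 110 UMIs in the caput library and 55 in the corpus library, and STMN2 had 250 and 84. Fibroblasts held 11.8% of the caput LHX9 UMIs and 30.9% of those of corpus. They held 8.80% of the caput STMN2 UMIs and 20.2% of those of corpus. Of the UMIs of all genes in kept cells, fibroblasts held 1088837 of 13203203 in caput and 1252011 of 4141900 in corpus. The cells outside the fibroblast class had 8.01 CPM of LHX9 in caput and 13.1 CPM in corpus. Their STMN2 levels were 18.8 CPM in caput and 23.2 CPM in corpus. All of these intervals overlapped those of the fibroblasts, so neither gene was shown to be enriched in epididymal fibroblasts. In caput fibroblasts the LHX9 level was 0.879 times that of corpus fibroblasts (0.393 to 1.92), and the STMN2 level 1.49 times (0.755 to 2.98), so neither gene was shown to differ between the regions at this depth.

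The caput library also held 255 germ cells. They had 17 UMIs of LHX9, or 21.8 CPM (12.7 to 34.9), against 4.16 CPM (2.42 to 6.66) in 2996 luminal epithelial cells of the same library. The ratio of caput germ cells to luminal cells was 5.25 (2.52 to 10.9). STMN2 went the other way, with 1 UMI in caput germ cells, or 1.28 CPM (0.0325 to 7.15), and 38 in luminal cells, or 9.30 CPM (6.58 to 12.8). LHX9 in caput germ cells was 1.19 times its level in testis germ cells (0.690 to 1.92). The LHX9 interval of caput germ cells overlapped that of caput fibroblasts (6.36 to 20.4 CPM). The fullest caput germ cell held 5 of the 17 LHX9 UMIs.

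In caput, STMN2 was most abundant in 2 clusters named by a list of very long genes seen in nuclei. Their leading genes include SYNPR, NRG3 and IL1RAPL1. These 4075 cells had 165 of the 250 STMN2 UMIs, or 31.9 CPM (27.2 to 37.1). This was 1.58 times the caput fibroblast level (1.01 to 2.59) and 3.43 times the caput luminal level (2.40 to 5.02). The list of long genes summed to 13187 CPM there, against 5649 CPM in caput fibroblasts and 4440 CPM in luminal cells. Its part in the STMN2 level was not tested. LHX9 was 11.4 CPM in the same cells (8.68 to 14.7). The corpus cluster named by that list had 25.9 CPM of STMN2 (17.2 to 37.5) and 18.5 CPM of LHX9 (11.3 to 28.6), and both intervals overlapped those of corpus fibroblasts.

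Among all clusters of at least 50 cells, the testis stromal cells had the highest level of both genes. For LHX9 the next was caput germ cluster 9, with 15 UMIs and 24.8 CPM (13.9 to 40.9), whose interval overlapped that of every testis germ cluster but cluster 10. For STMN2 the next was the corpus endothelial cluster, with 3 UMIs and 49.9 CPM (10.3 to 146), whose upper bound overlapped the interval of the testis stromal cells. After it came caput clusters 0 and 2, with 32.3 and 30.4 CPM.

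**Figure D3:**
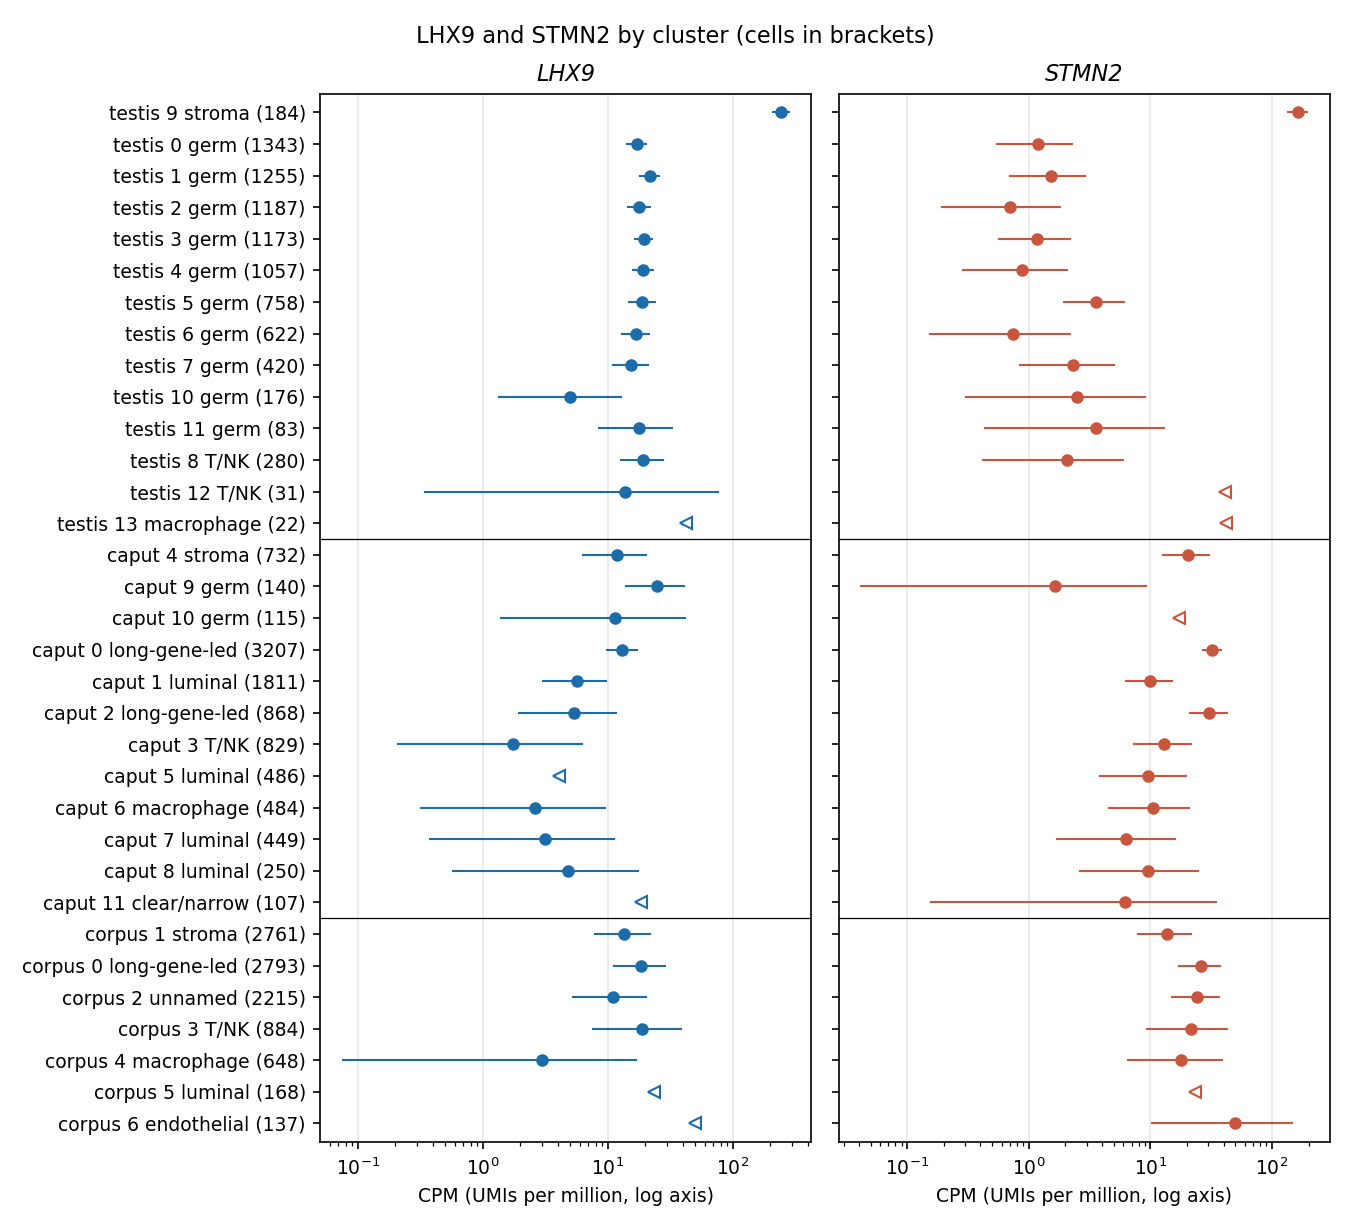
LHX9 (left) and STMN2 (right) in CPM on a log axis for each cluster of at least 20 cells, grouped by library, with exact 95% Poisson intervals and the number of cells in brackets. Open triangles mark clusters with 0 UMIs and sit at the level that 3 counts would give. The testis stromal cluster, at 244 CPM of LHX9 and 164 CPM of STMN2, lies to the right of all other points.

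The share of cells with a UMI was also highest in testis stromal cells. Caput and corpus fibroblasts are not ordered by these shares, which run against the CPM for LHX9 and, after thinning, for STMN2. LHX9 was found in 51.6% of testis stromal cells, 1.78% of caput fibroblasts and 0.580% of corpus fibroblasts, at median depths of 3209, 1242.5 and 399 UMIs. STMN2 was found in 32.1%, 2.46% and 0.580% of the same cells. After each cell was thinned to 300 UMIs, LHX9 was found in 7.61% of testis stromal cells, 0.546% of caput fibroblasts, 0.292% of corpus fibroblasts and 0.570% of testis germ cells. Thinned STMN2 was found in 5.98% of testis stromal cells, 0.410% of caput fibroblasts, 0.474% of corpus fibroblasts and 0.0743% of testis germ cells. No caput or testis cell was too shallow to be thinned, and 165 corpus cells were left out.

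LHX9 and STMN2 were often found in the same testis stromal cells. Of the 184 cells, 42 had both, 53 had LHX9 alone, 17 had STMN2 alone and 72 had neither. LHX9 was present in 42 of 59 cells with STMN2 (71.2%, 57.9 to 82.2) and in 53 of 125 cells without it (42.4%, 33.6 to 51.6). In the low-germ subset it was present in 22 of 26 cells with STMN2 (84.6%, 65.1 to 95.6) and in 17 of 27 cells without (63.0%, 42.4 to 80.6), and there the intervals overlapped. No cell had both genes among 732 caput and 2761 corpus fibroblasts, which at these depths allows shares of up to 0.503% and 0.134% by the binomial interval. In testis germ cells 8 of 8074 had both.

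**Figure D4:**
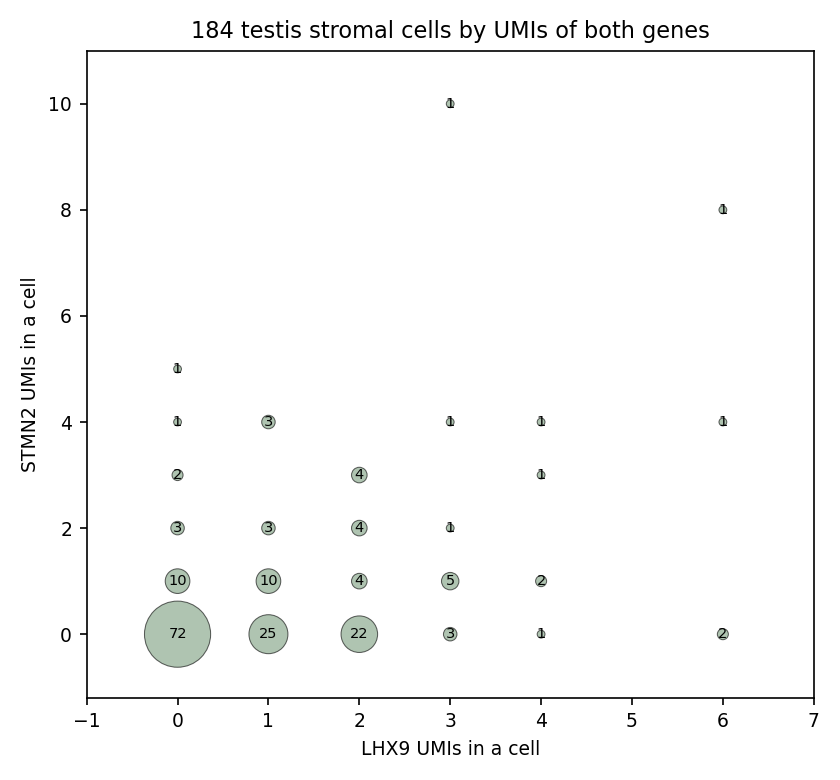
The 184 testis stromal cells by their number of LHX9 UMIs (horizontal) and STMN2 UMIs (vertical). The area of each circle and the number in it give the cells at that position, and the largest circle holds the 72 cells with neither gene.

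Cells with either gene were shallower and richer in stromal RNA. The 95 cells with LHX9 had a median of 2743 UMIs per cell and 31 stromal list UMIs, against 3782 and 11 in the 89 cells without it. The 59 cells with STMN2 had a median of 2594 UMIs and 38 stromal list UMIs, against 3684 and 13 in the 125 cells without it. Peritubular myoid and smooth muscle markers were more often found in cells with either gene, and so were pericyte, Sertoli and Leydig markers. The shares that follow are given without intervals. Most Sertoli list UMIs of the class were of GATA4 and most Leydig list UMIs of IGF1, and PDGFRB is in both the pericyte and the stromal list. Sertoli or Leydig identity is therefore not shown by them. Myoid markers had a UMI in 91.6% of cells with LHX9 and 68.5% of cells without, and in 96.6% of cells with STMN2 and 72.8% of cells without. Pericyte markers had a UMI in 41.1% of cells with LHX9 and 28.1% without, and in 55.9% of cells with STMN2 and 24.8% without. Sertoli markers had one in 36.8% of cells with LHX9 and 22.5% without, and in 35.6% with STMN2 and 27.2% without. Leydig markers had one in 68.4% of cells with LHX9 and 56.2% without, and in 69.5% with STMN2 and 59.2% without. Endothelial markers went the other way, with a UMI in 8.42% of cells with LHX9 and 25.8% of cells without it.

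Both genes followed the share of stromal RNA within the class. The cells were ranked by the share of UMIs in the stromal list and cut into sets of 62, 61 and 61 cells, from low to high share. LHX9 was at 96.3 CPM (65.9 to 136) in the low set, 167 CPM (123 to 221) in the middle set and 747 CPM (612 to 903) in the high set. STMN2 was at 45.1 CPM (25.3 to 74.5), 87.0 CPM (56.3 to 128) and 599 CPM (478 to 741) in the same order. The median germ list share was 0.417%, 0.443% and 0.141% of UMIs in those sets.

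**Figure D5:**
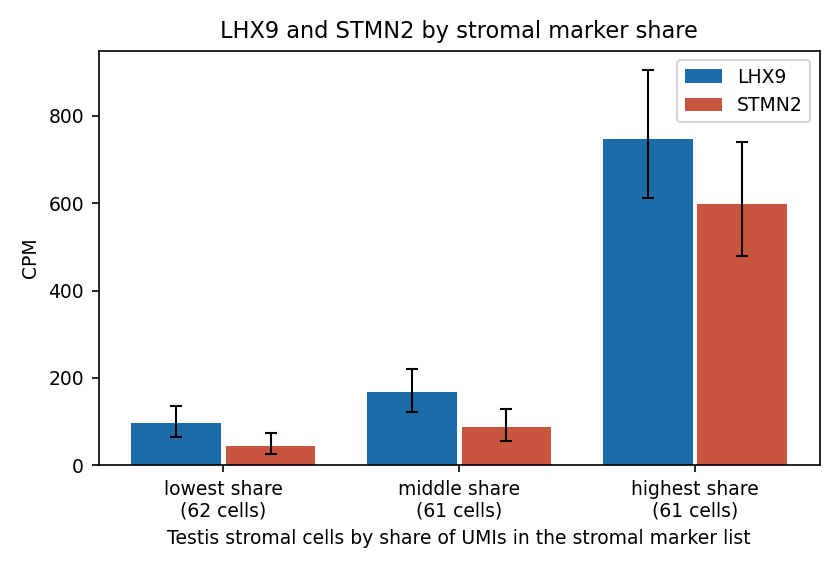
LHX9 and STMN2 in CPM in sets of 62, 61 and 61 testis stromal cells, from low to high share of UMIs in the stromal marker list, with exact 95% Poisson intervals. Both genes are highest in the set with the largest stromal share, at 747 and 599 CPM.

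Set against stromal RNA and not all RNA, the gap to the epididymis was wider. Per 1000 UMIs of the stromal list, testis stromal cells had 34.1 LHX9 UMIs, against 0.238 in caput fibroblasts and 0.162 in corpus fibroblasts. The same quantity for STMN2 was 22.9 in testis stromal cells, against 0.403 in caput and 0.162 in corpus fibroblasts. Inside the testis class it changed little with germ RNA for STMN2, at 22.7 in the low-germ subset and 23.2 in the other 131 cells, and for LHX9 it was 28.6 and 41.3. In testis germ cells, with 85.9 CPM of the stromal list, the quantity was 213 for LHX9 and 16.5 for STMN2. On this scale LHX9 was therefore not highest in the testis stromal cells. The collagens COL1A1 and COL1A2 themselves were lower in testis stromal cells, for COL1A1 at 177 CPM against 4145 CPM in caput and 3578 CPM in corpus fibroblasts.

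The other LIM-homeodomain genes were too few to set apart from all features. Of 12 family members, 4 could be tested against caput fibroblasts, 5 against corpus fibroblasts and 9 against testis germ cells, and LHX9 was the 1 that passed in each. Over all features 7.34%, 8.92% and 5.24% passed as higher in these contrasts, so 0 among the few others is near the background. The median log2 ratio of those tested was 1.34, -0.42 and -0.35, beside -0.95, -0.97 and -0.05 over all features. These medians include LHX9, which was chosen on these contrasts, so they do not describe the other members alone. LHX2, a close relative that also acts in the developing gonad of the mouse, had 35 UMIs and 46.0 CPM in testis stromal cells. It had 4.59 CPM in caput fibroblasts, 5.59 CPM in corpus fibroblasts and 70.2 CPM in testis germ cells. Its ratios of 10.01 (3.90 to 32.7) over caput and 8.22 (3.60 to 21.9) over corpus fell short of the rule. In the low-germ subset LHX2 had 2 UMIs, or 16.03 CPM, where LHX9 had 88. ISL1 had 7 UMIs in testis stromal cells, at 9.19 CPM, against 13.8 CPM in caput and 12.8 CPM in corpus fibroblasts, and LMX1A had 4.

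The cofactors that LIM-homeodomain proteins use were present at modest levels. Of 10 listed cofactor and LIM-only genes, 9 could be tested in each contrast. Of these, 0 passed as higher than in caput or corpus fibroblasts, while 5 passed as higher than in testis germ cells. Over all features 7.34%, 8.92% and 5.24% passed as higher in these contrasts, so 0 of 9 over fibroblasts is near the background. LDB2 had 48 UMIs and 63.0 CPM in testis stromal cells, against 200.2 CPM in caput fibroblasts and 226 CPM in corpus fibroblasts. LDB1 had 28.9 CPM in testis stromal cells and 63.1 CPM in corpus fibroblasts. SSBP2, which stabilises LDB proteins, and LMO4 were past the rule in the lower direction in both fibroblast contrasts, with LMO4 at 22.3 CPM in testis stromal cells, 240 CPM in caput and 173 CPM in corpus fibroblasts. LMO3, named after its values were seen, passed as lower than in caput fibroblasts. In that direction 6.37% of all features passed for caput and 6.08% for corpus. In the low-germ subset 1 of 7 tested passed as higher over both fibroblast classes, where 1.33% and 1.89% of all features passed as higher. This was LMO2, known from endothelial and blood cells, at 136 CPM against 7.35 CPM in caput and 6.39 CPM in corpus fibroblasts.

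Among 29 regulators of the gonadal ridge and gonadal stroma, 27 were in the files and 2 passed as higher than in both fibroblast classes, INSL3 among them. Of the list, 21 could be tested over caput and 20 over corpus fibroblasts. Over all features 7.34% and 8.92% passed as higher in these contrasts, so 2 is near the background. INSL3 had 70.9 CPM in testis stromal cells and 0 UMIs in caput fibroblasts, so it was at least 25.7-fold higher by a floor of 3 counts over the caput class. GATA4, a gonadal transcription factor, had 56.5 CPM in testis stromal cells, 23.0 CPM in caput and 29.6 CPM in corpus fibroblasts, at ratios of 2.46 (1.47 to 4.20) and 1.91 (1.20 to 3.05). In the low-germ subset GATA4 reached 200.4 CPM and passed over caput fibroblasts, with a ratio of 8.73 (4.81 to 15.8).

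TCF21 and NR2F2, mesenchymal factors of the testis interstitium in the mouse, were shared with the epididymis. TCF21 had 126 CPM in testis stromal cells, 203 CPM in caput and 169 CPM in corpus fibroblasts. NR2F2 had 129 CPM in testis stromal cells, 210 CPM in caput and 302 CPM in corpus fibroblasts. The 5 list members that passed as lower than in caput fibroblasts, named after their values were seen, were TBX3, DLK1, PTCH1, MEIS1 and MEIS2, and the 4 lower than in corpus fibroblasts were the same without PTCH1. Over all features 6.37% and 6.08% passed as lower in these contrasts. In the low-germ subset, where 0.556% of all features passed as lower than in caput and 0.37% as lower than in corpus fibroblasts, 0 list members passed as lower in either contrast. The list's median log2 ratio was -2.54 over caput and -1.88 over corpus fibroblasts for the 21 and 20 members tested. The same medians were -0.95 and -0.97 over all features, and -2.07 and -2.10 for the fibroblast and stroma markers.

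Genes of position and of duct mesenchyme that passed the rule were all lower in testis stromal cells than in fibroblasts. Of 21 listed, 0 passed as higher than in either fibroblast class, where 7.34% and 8.92% of all features did. Lower than in caput were 6 of 11 tested, and lower than in corpus fibroblasts 5 of 13. Over all features 6.37% and 6.08% passed as lower. The drop was not particular to this list, since 11 of 22 fibroblast and stroma markers passed as lower than in caput and 10 as lower than in corpus fibroblasts. SFRP1, a secreted Wnt antagonist, had 227 CPM in testis stromal cells, 1345 CPM in caput and 742 CPM in corpus fibroblasts. HOXA9 had 3.94 CPM in testis stromal cells, 50.5 CPM in caput and 91.1 CPM in corpus fibroblasts. MEIS2, a HOX partner, had 6.57 CPM in testis stromal cells, 129 CPM in caput and 113 CPM in corpus fibroblasts. With the low-germ subset 1 of 8 tested passed as lower than in caput, SFRP4 with 0 UMIs, and 0 of 10 lower than in corpus fibroblasts. Over all features 0.556% and 0.37% passed as lower with that subset.

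Of the 4 stathmins, 2 could be tested over the fibroblast classes, STMN1 and STMN2, and both passed over caput and corpus fibroblasts. STMN2 was chosen on these contrasts, in which 7.34% and 8.92% of all features passed as higher. STMN1, the ubiquitous stathmin of dividing cells, had 952 UMIs and 1250.0 CPM in testis stromal cells, against 57.9 CPM in caput fibroblasts and 30.4 CPM in corpus fibroblasts. In testis germ cells it was at 1530.2 CPM, and its ratio of stromal to germ cells was 0.817 (0.766 to 0.871), where that of STMN2 was 116. In the low-germ subset STMN1 was at 409 CPM, below its level in all 184 cells, while STMN2 was above. STMN3 had 2 UMIs and STMN4 had 0 UMIs in the testis stromal cells.

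STMN2 is known as a neuronal gene, and neuronal and glial markers were looked at beside it. Of 21 such markers in the files, 8 had 0 UMIs in the testis stromal cells, among them TUBB3, GAP43, STMN4 and CHGA. The 21 summed to 246 CPM in testis stromal cells, against 1075 CPM in caput and 997 CPM in corpus fibroblasts, and to 209 CPM in testis germ cells. NCAM1 alone gave 466 CPM of the caput sum and 346 CPM of the corpus sum. The markers did not all go 1 way. Of 9 tested over caput and 10 over corpus fibroblasts, 1 passed as higher and 5 as lower in each. Over all features 7.34% and 8.92% passed as higher and 6.37% and 6.08% as lower. SYT1, a synaptic vesicle protein, had 44 UMIs, and S100B had 7. These markers had a UMI in 47.5% of testis stromal cells with STMN2 and 54.4% of those without it.

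Genes around microtubules and the control of stathmins are read against all features, of which 7.34% and 8.92% passed as higher and 6.37% and 6.08% as lower than in caput and corpus fibroblasts. Of 18 other microtubule regulators tested over caput and corpus fibroblasts, 0 passed as higher, MAP2 passed as lower in both and DCLK1 as lower than in corpus. MAP1B, a neuronal and mesenchymal microtubule protein, had 52.5 CPM in testis stromal cells and 1.57 CPM in testis germ cells, at a ratio of 33.4 (22.1 to 49.8). Among 14 tubulins and related genes, TUBB4B passed as higher than in both fibroblast classes, at 5566 CPM in testis stromal cells, 182 CPM in caput and 133 CPM in corpus fibroblasts. TUBB4B, a tubulin of cilia and flagella, was at 6984 CPM in testis germ cells. TUBB had 30.2 CPM in testis stromal cells and 0.465 CPM in testis germ cells. Of 9 kinases that act on stathmins and 3 enzymes that palmitoylate stathmin 2, 0 passed in any of the 3 contrasts in either direction.

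The genes whose level was most like that of each member were taken over 31 clusters of at least 50 cells, as Pearson correlations of log2(CPM + 10). These points share library and depth, so the values are a description. The 8 nearest named genes to LHX9, among them NKX6-2, INSL3, IRX4, FBF1, LOXL1, GLI4 and CRIP3, had r of 0.81 down to 0.73. Without the testis stromal cluster, r was 0.42 for INSL3, and it was 0.83 for CRIP3, 0.82 for LOXL1 and 0.77 for FBF1. The 8 nearest to STMN2 were MME, APOL6, NRK, GATA4, LTBP2, PAPSS2, LMOD1 and FBLN7, with r of 0.87 down to 0.78, and without the testis stromal cluster they were at 0.74 to 0.89. MME is a membrane peptidase, LTBP2 and FBLN7 are matrix proteins, and LMOD1 is a smooth muscle actin nucleator. LHX9 and STMN2 themselves correlated at 0.30, and at -0.32 without the testis stromal cluster.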

How the data were processed

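The deposited matrices hold UMI counts per feature and cell, whole numbers that are not normalized, and their file headers name PISA v0.12 as the writer. Cell Ranger 2.1.1 appears in the submitters' processing notes with no role stated. No source used here gives an aligner or a genome build, so no coordinates or sequences are printed. In the RefSeq table, used for names and neighbours, 0 genes overlap LHX9 or STMN2. LHX9, STMN2 and the gene lists were chosen with earlier results of these data known.

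Cells with at least 200 genes were kept (8610 of 8610, 9478 of 9478 and 9609 of 9611). Doublets were scored with 2 simulated doublets per cell. This marked 19 testis barcodes (0.221%), which were left out (8591 cells remained), and 0 in caput and corpus, so the calling did not work and doublets remain. Each library was clustered on its own with scanpy 1.11.5, by the Leiden method at resolution 1 (leidenalg 0.10.2, seed 0) from 15 neighbours in 30 principal components of 2000 variable genes. A cluster took a name with at least 3 markers, and at least 20% of those measured, that exceeded the other clusters' median by 2-fold, in 5% of cells and with 5 UMIs, and with a mean log2 ratio of 1. Germ clusters could also be named by the general germ list against epididymal clusters. A difference from other accounts may come from these rebuilt names.

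UMIs were summed over the cells of a class. Poisson, binomial and ratio intervals (scipy 1.17.1) are at 95% and cover counting error only. Each contrast was computed over all features, a floor is 3 counts, and list medians use 0.5 added counts. The ratio step was tested on simulated data. Named genes were the members, up to 6 genes of each list by UMIs in testis stromal cells, the 8 most like each member, and 8 genes in each direction for the contrast. A gene named outside this rule was chosen after its values were seen. Some genes that the rule names are not reported here. Alternatives were Leiden resolutions of 0.5 and 2, clustering without the members, at least 500 genes per cell, other doublet limits, thinning to 300 UMIs, a cell by cell gate of stromal genes and other UMI minimums.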

Additional observations from a re-analysis of the deposited data

How the results depend on the processing

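Leaving out cells rich in germ RNA, a choice made after seeing the data, raised the CPM of LHX9 and STMN2 and their ratios between classes. In testis stromal cells LHX9 was then at 706 CPM and STMN2 at 561 CPM. The LHX9 ratios were 59.1 over caput fibroblasts, 52.0 over corpus fibroblasts and 38.5 over testis germ cells, and those of STMN2 were 27.8, 41.3 and 396. Thinning each cell to 300 UMIs left 11 STMN2 UMIs in testis stromal cells, at 199 CPM, with ratios of 14.6 (3.85 to 81.4) over caput fibroblasts and 80.4 over germ cells. Leaving out the 5% highest doublet scores gave STMN2 a ratio of 159 over germ cells. In all 9 alternatives every ratio of both genes stayed above 1. The lower bound stayed beyond 4-fold in 9 of 9 for LHX9 in each contrast and for STMN2 over germ cells, and in 8 of 9 for STMN2 over caput fibroblasts, the exception being thinning, and over corpus fibroblasts, the exception being the minimum of 500 genes per cell (14.4, 3.90 to 120). The cell by cell gate took 153 testis stromal cells, and clustering without both genes took 172.

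Counts of features past the fold rule moved more. Higher than in caput fibroblasts were 277 features after thinning and 151 in the low-germ subset, higher than in corpus fibroblasts 585 with at least 500 genes per cell, 408 after thinning and 220 in the subset, and higher than in germ cells 273 with at least 50 UMIs, 155 after thinning and 1488 with no minimum. Lower than in caput fibroblasts were 653 features without the 5% highest doublet scores, 45 after thinning and 63 in the subset, lower than in corpus fibroblasts 412 with at least 500 genes, 35 after thinning and 43 in the subset, and lower than in germ cells 100 in the subset. Thinning and the subset leave fewer UMIs to test. No paired analysis was possible because each tissue has 1 library.

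The main limit is 1 library per tissue, with no replicate to set the spread between animals. The corpus library is shallow, and its fibroblasts had 17 UMIs of each gene. Doublets remain, and many testis stromal cells carry germ RNA.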
